A study of Mus with 9 samples.

Results

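The SLC25 carriers are the mitochondrial solute carriers whose gene symbol is Slc25a followed by a number. This rule found 47 genes, each with 1 probe set and no second symbol, among the 22206 probe sets of the Clariom S Mouse array. RefSeq lists 48 symbols of this form for the mouse, and the 1 without a probe set under its own symbol is the pseudogene Slc25a5-ps. Every carrier therefore had a value in each of the 3 groups.

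The inner membrane of the mitochondrion is closed to most metabolites, and the SLC25 proteins are the family of small carriers that exchange them. They bring in ADP and phosphate for ATP synthesis, pass carboxylates and amino acids, and supply the matrix with cofactors, iron and glutathione. In the brain the aspartate-glutamate carrier Slc25a12 takes part in the malate-aspartate shuttle, which carries the reducing power of glycolysis into the mitochondria of neurons, and the glutamate carriers join the matrix to the pool of the transmitter glutamate.

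Hippocampal RNA was taken from mice of 3 groups, with 3 arrays in each. The methods give 16 weeks as the age of the SAMP8 mice used, and acclimatization, dosing and maze testing came before the hippocampus was removed, so the tissue is from older animals. SAMR1 mice, the strain with normal aging, and SAMP8 mice, the senescence-accelerated strain (male by the methods, which give no sex for SAMR1), received the vehicle for 30 days, which the sample records call saline and the methods call water. TG-treated SAMP8 mice received trigonelline (TG), an alkaloid of coffee and fenugreek, by mouth at 5 mg/kg for the same 30 days. All mice were then tested in the Morris water maze over 8 days, during which TG was continued. SAMP8 and SAMR1 are inbred strains that differ at many loci, and which loci bear on a difference between them was not tested. The series text speaks of duplicate RNA samples, and the description of each record is about a macrophage line under another treatment. The groups were therefore taken from the sample titles.

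The deposited tables hold 1 average per group, on the log2 scale of the SST-RMA signal, and no value per array was used. The spread between the 3 arrays of a group could not be set against any difference here, so no difference below carries an error, a test or a p-value. A limit of 1.5-fold, which is 0.585 on the log2 scale, serves as the mark for a large difference, and counts of carriers are set beside the share of all probe sets past the same limit. The averages are given to 2 decimals, so a difference can be off by 0.01 from rounding. Signals of different probe sets depend on their probes, so levels are compared between groups for 1 gene and never between genes. In whole tissue, fewer cells of a type and less RNA per cell cannot be told apart.

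Markers of the hippocampus were present in every group. Of 8 hippocampal neuron markers, 2 were higher in SAMP8 than in SAMR1 by more than 1.5-fold (all probe sets, 5.0%), Spink8 by 1.3 and Prox1 by 0.59, and 0 were lower. With TG, 2 were lower (all probe sets, 3.74%), Prox1 at -0.85 and Zbtb20 at -0.65, and 0 were higher. Neurod6, a marker of pyramidal neurons, stood at 14.86 in SAMR1, 14.85 in SAMP8 and 14.88 with TG. The dentate granule cell markers went different ways, with Prox1 at 11.26, 11.85 and 11.00 and C1ql2 at 6.61, 6.57 and 6.68. Of 8 meningeal marker genes, 3 were higher in SAMP8 than in SAMR1 by more than 1.5-fold, Igf2 (1.58), Fmod (1.43) and Ptgds (0.87). Lower past that limit were 2, Col1a2 (-0.64) and Lum (-0.6), where 5.0% of all probe sets were higher and 6.08% lower. With TG, 5 were lower by more than 1.5-fold and 0 were higher (all probe sets, 3.74% and 4.48%), with a median difference of -0.70. Igf2, Fmod and Ptgds were among these 5, while Lum (0.46), Col1a2 (0.17) and Col1a1 (0.13) were higher with TG, inside the limit. The summed signal of the 8 genes was 11.44, 11.59 and 10.32 on the log2 scale in SAMR1, SAMP8 and TG-treated SAMP8. The 6 astrocyte markers had medians of 0.145 for SAMP8 minus SAMR1 and -0.07 with TG. All 6 were higher in SAMP8 than in SAMR1 (all probe sets, 49.5%), and 2 passed 1.5-fold (all probe sets, 5.0%), Gfap (0.95) and Slc1a3 (0.62). The summed signal of the 6 markers, 18.45, 18.51 and 18.47, is mostly that of Slc1a2. The 6 choroid plexus markers summed to 9.16, 9.88 and 10.36, which is mostly the signal of Ttr (8.45, 9.33 and 10.05). Ttr (0.88) and Kl (0.67) were higher in SAMP8 than in SAMR1 past 1.5-fold, and 0 were lower (all probe sets, 5.0% and 6.08%). Cldn2 (-0.3) and Aqp1 (-0.12) were lower in SAMP8 inside the limit. With TG the members went both ways, since Ttr was 0.72 higher and Kl differed by -0.79. All 7 probe sets of the 5 thalamus markers were higher in SAMP8 than in SAMR1 (all probe sets, 49.5%). Past 1.5-fold were 3 (all probe sets, 5.0%), those of Tcf7l2 (0.76) and Slc17a6 (0.66) and 1 of Rora (0.63). The 7 probe sets had a median of 0.53. With TG their median was -0.04, and Prkcd alone passed the limit, at -1.50, which lowered the summed signal from 11.95 in SAMP8 to 11.37 (11.63 in SAMR1). The part of cell composition in the differences below was not tested.

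As a family, the SLC25 carriers had medians within 0.03 of those of all probe sets in each comparison. Their share past 1.5-fold in either direction was below that of all probe sets each time. Between SAMP8 and SAMR1, 4 of the 47 carriers differed by more than 1.5-fold, which is 8.5% of them against 11.1% of all probe sets. Of these, 3 were higher in SAMP8 (all probe sets, 5.0%) and 1 was lower (6.08%). The median difference was 0.01 over the carriers and 0.00 over all probe sets. With TG, 3 carriers (6.4%) were lower than in SAMP8 by more than 1.5-fold and 0 were higher, where 3.74% of all probe sets were lower, 4.48% higher and 8.21% past the limit in either direction. The median with TG was -0.02, against 0.01 for all probe sets. TG-treated SAMP8 differed from SAMR1 by more than 1.5-fold in 1 carrier, which was higher. This is 2.1%, against 10.5% of all probe sets (5.62% higher and 4.83% lower), and the carriers' median was -0.01, the same as that of all probe sets.

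Smaller differences were counted in the same way. A limit of 1.2-fold was passed by 18 carriers between the strains (38.3%, all probe sets 40.8%), by 19 with TG (40.4%, all probe sets 38.2%) and by 19 between TG-treated SAMP8 and SAMR1 (40.4%, all probe sets 40.5%). Higher and lower carriers were nearly balanced, with 26 higher and 21 lower in SAMP8 than in SAMR1, where 49.5% of all probe sets were higher and 49.0% lower. With TG, 21 were higher, 24 lower and 2 equal to SAMP8 (all probe sets, 50.0% higher and 48.3% lower). Against SAMR1, 23 were higher and 24 lower in the TG group (all probe sets, 48.1% higher and 50.4% lower). Slc25a2, Slc25a21, Slc25a31, Slc25a34, Slc25a45 and Slc25a48, 6 of the 47, had a mean average in the lowest 25% of the array, up to 4.40. In all, 41 of the 47 carriers stayed within 1.5-fold in all 3 comparisons, and 8 had no difference as large as 0.2. These joint counts were not made for all probe sets, of which 11.1%, 8.21% and 10.5% passed 1.5-fold in the single comparisons.

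**Figure D1:**
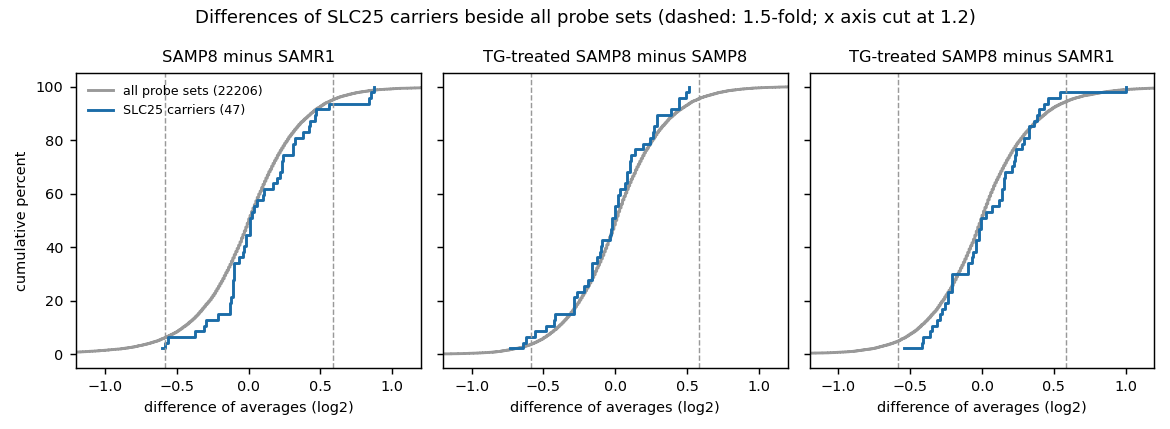
Cumulative percent (vertical axis) of the differences between group averages on the log2 scale (horizontal axis, cut at 1.2) for the 47 SLC25 carriers in blue and all 22206 probe sets in grey, with 1 panel for each comparison and dashed lines at 1.5-fold. The blue and grey curves run close together, and the carriers' medians are 0.01, -0.02 and -0.01 from left to right.

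Between the strains, the carriers with the highest differences were those of coenzyme A, iron and pyrimidine nucleotides, Slc25a42, Slc25a37 and Slc25a36. Slc25a42, which carries coenzyme A into mitochondria, averaged 6.72 in SAMR1 mice, 7.59 in untreated SAMP8 mice and 6.95 in those given TG. The SAMP8 average was the high one, 0.87 above SAMR1 (1.83-fold) and 0.64 above the TG group (1.56-fold). The gene lies on chromosome 8 from 70184340 to 70212281 in GRCm38.p6. Among all probe sets, its difference between the strains stood at the percentile 98.6 and its difference with TG at 2.6.

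Slc25a37, mitoferrin 1, imports iron for heme and iron-sulfur clusters. It averaged 5.06 in SAMR1, 5.91 in SAMP8 and 5.18 with TG, so that SAMP8 again stood above the other groups. SAMP8 exceeded SAMR1 by 0.85 (1.80-fold), and the TG group was lower than SAMP8 by 1.66-fold, a difference of -0.73 that was the lowest of all carriers in that comparison and stood at the percentile 1.6 of all probe sets. The gene lies on chromosome 14 from 69241848 to 69285544. Mitoferrin 1 is known for its high expression in developing red blood cells. Of the 5 red blood cell marker probe sets, 4 were higher in SAMP8 than in SAMR1 and 4 were lower with TG by any amount (all probe sets, 49.5% and 48.3%), and their summed signals were 12.23 in SAMR1, 12.48 in SAMP8 and 12.12 with TG. Alas2, the heme synthesis enzyme of that lineage, ran the other way, at 5.81, 4.75 and 5.19. The part of blood in the value of Slc25a37 was not tested. Its paralog Slc25a28, mitoferrin 2, stood at 7.51, 7.40 and 7.66, a range of 0.26.

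Slc25a36, a carrier of pyrimidine nucleotides used for mitochondrial DNA and RNA, was the other carrier higher in SAMP8. It stood at 10.17 in SAMR1, 11.01 in SAMP8 and 10.45 with TG. The strain difference was 0.84 (1.79-fold), and the difference with TG was -0.56 (1.47-fold), just inside the limit. Slc25a33, the other pyrimidine nucleotide carrier, had smaller differences in the same comparisons, 0.23 and -0.16, with averages of 5.88, 6.11 and 5.95. Since the untreated SAMP8 arrays enter both of these comparisons, a high SAMP8 average alone gives a positive difference from SAMR1 and a negative one with TG. This holds for Slc25a42, Slc25a37 and Slc25a36 alike, and the tables do not separate the average from its error.

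The remaining carriers of cofactors lay within 1.5-fold. Slc25a17, a carrier of coenzyme A and other cofactors in the peroxisome membrane, had averages of 9.77, 10.23 and 10.31 in SAMR1, SAMP8 and TG-treated SAMP8. It stood 0.46 higher in SAMP8 and 0.54 higher in TG-treated SAMP8 than in SAMR1, while the SAMP8 groups differed by 0.08. Slc25a51, the carrier of NAD+, stood at 12.29, 12.40 and 12.50. Slc25a26 for S-adenosylmethionine and Slc25a32 for folate and flavin cofactors had differences between -0.24 and 0.24 in all 3 comparisons. Over all 8 carriers of this group, 7 were higher in SAMP8 than in SAMR1 (all probe sets, 49.5%), with a median of 0.27. With TG, 5 of the 8 were lower (all probe sets, 48.3%), with a median of -0.145.

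**Figure D2:**
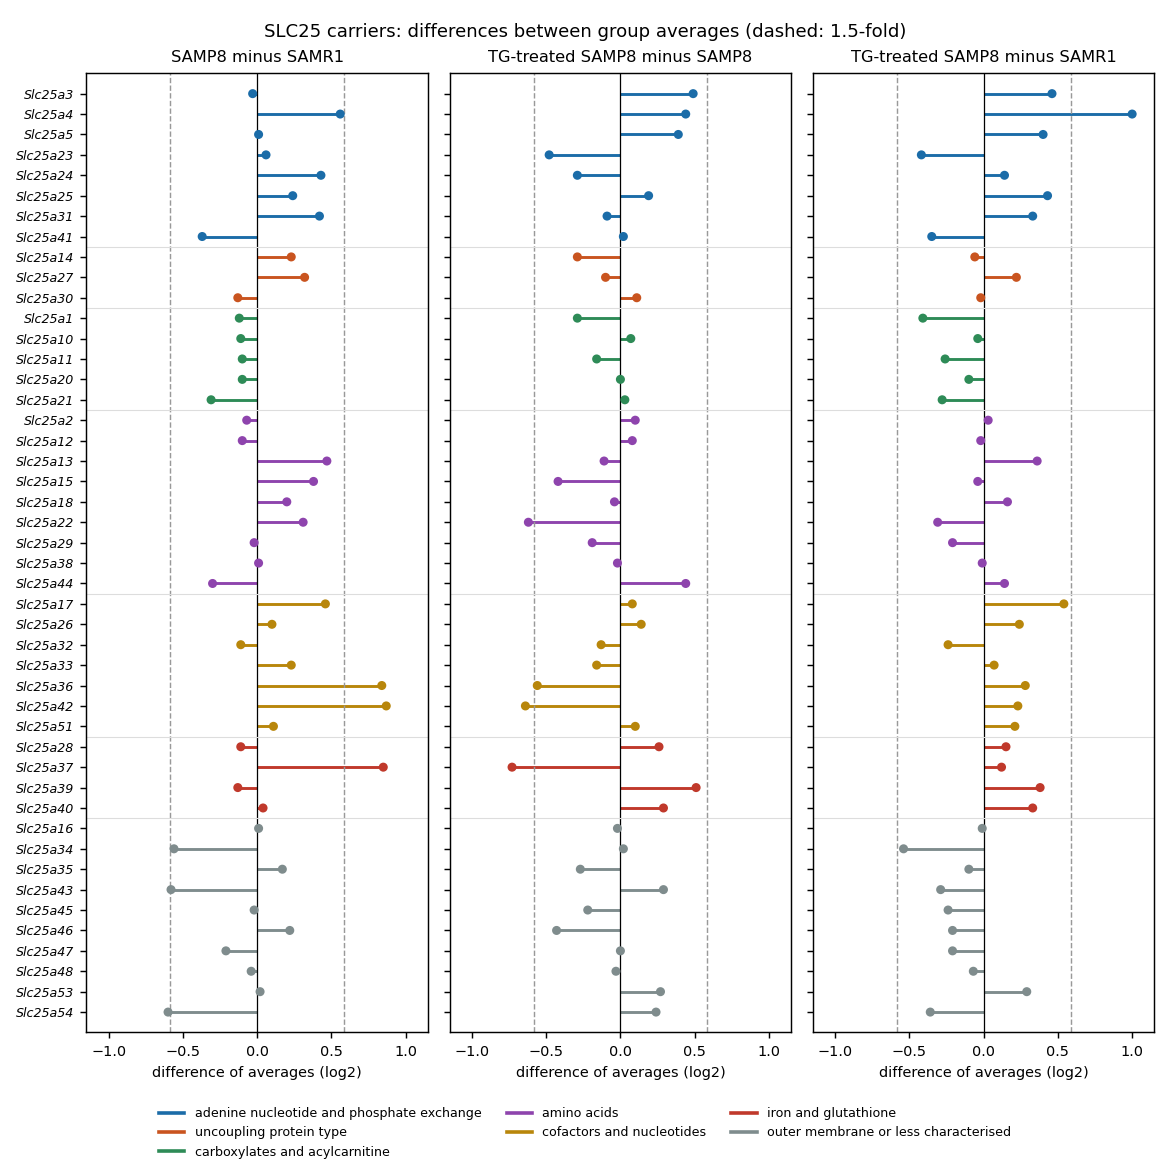
Differences between group averages (horizontal axis, log2) of 46 SLC25 carriers (rows, colored by role), with 1 panel for each comparison and dashed lines at 1.5-fold. Slc25a42, Slc25a37 and Slc25a36 reach 0.87, 0.85 and 0.84 in SAMP8 minus SAMR1, and Slc25a4 reaches 1.0 in TG-treated SAMP8 minus SAMR1.

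The carriers Slc25a3, Slc25a4 and Slc25a5, which serve ATP synthesis, had higher averages with TG than in SAMP8, each by less than 1.5-fold. Slc25a4, the ADP/ATP translocase of heart, muscle and brain, averaged 13.98 in SAMR1, 14.54 in SAMP8 and 14.98 with TG. It was the only carrier past 1.5-fold between TG-treated SAMP8 and SAMR1, at 1.0 on the log2 scale (2-fold, percentile 98.9 of all probe sets). The steps that add up to this difference were 0.56 from SAMR1 to SAMP8 and 0.44 from SAMP8 to the TG group, neither of them past the limit. The gene lies on chromosome 8 from 46207168 to 46211062. Slc25a5, the ADP/ATP translocase of many tissues, stood at 13.14, 13.15 and 13.54, so that the strains were level and the TG group was 0.39 higher than SAMP8. It lies on chromosome X from 36795597 to 36798808. Slc25a31, the translocase known from testis, had averages of 3.37, 3.79 and 3.70, in the lowest 25% of signal on the array. Copies of one translocase in the genome, such as Slc25a5-ps, could share probes with it, which was not checked here.

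Slc25a3, the phosphate carrier, delivers the phosphate that ATP synthase joins to ADP. It stood at 14.21 in SAMR1 and 14.18 in SAMP8, which differed by 0.03, and at 14.67 in the TG group. The difference with TG was 0.49 (1.4-fold), the second highest of the carriers in that comparison. Among all probe sets the TG differences of Slc25a3, Slc25a4 and Slc25a5 stood at the percentiles 92.6, 90.8 and 88.4. Slc25a3 lies on chromosome 10 from 91116574 to 91124046.

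The carriers that exchange ATP-Mg for phosphate, of which Slc25a23, Slc25a24 and Slc25a25 are regulated by calcium, went both ways with TG. Slc25a23 had averages of 15.21, 15.27 and 14.79, with the TG group 0.48 below SAMP8 (1.39-fold) and 0.42 below SAMR1. Slc25a24 stood at 5.05, 5.48 and 5.19, and Slc25a25 at 8.08, 8.32 and 8.51. For Slc25a41 the averages were 4.82, 4.45 and 4.47. Of these carriers only Slc25a25 was higher with TG by more than 0.1, at 0.19. Within the 8 carriers of adenine nucleotides and phosphate, differences with TG ran from -0.48 to 0.49 around a median of 0.105.

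The partners of these carriers in ATP synthesis were set beside them. Among 16 probe sets for 15 genes of ATP synthase subunits, 8 were higher with TG than in SAMP8 by more than 1.5-fold and 0 were lower. Of all probe sets, 4.48% were higher and 3.74% lower. The median of the 16 was 0.55. The 8 higher ones were Atp5b, Atp5c1, Atp5e, Atp5f1, Atp5g3, Atp5j, Atp5l and Atp5o, with differences from 0.59 to 1.17. The probe sets of Atp5d, the delta subunit, went opposite ways, at 0.35 and -0.13. Between the strains the subunits' median was 0.06, with 1 past the limit in each direction (all probe sets, 5.0% higher and 6.08% lower). Atp5o had averages of 10.42 in SAMR1, 11.20 in SAMP8 and 12.37 with TG, and Atp5b, the catalytic beta subunit, 15.03, 15.08 and 15.85. With TG, 14 of the 16 ATP synthase probe sets were higher by any amount (all probe sets, 50.0%), as were Slc25a3, Slc25a4 and Slc25a5. The other 2, that of Atp5k (-0.06) and 1 of Atp5d, were lower with TG. The differences of the 3 carriers were smaller than the subunits' median of 0.55. Of the 8 carriers of adenine nucleotides and phosphate, to which these 3 belong, 5 were higher with TG and 3 lower.

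Other gates of the mitochondrion were examined as a list of 18 probe sets that are not SLC25 carriers. With TG, 1 of them was higher and 2 were lower by more than 1.5-fold (all probe sets, 4.48% and 3.74%), with a median of 0.005. The higher one was Mpc1, a subunit of the mitochondrial pyruvate carrier, at 13.61 in SAMR1, 13.68 in SAMP8 and 14.58 in the TG group. Its partner Mpc2 stood at 6.83, 7.52 and 7.90. The lower ones were Mcu, the pore of the calcium uniporter, at 7.48, 8.40 and 7.75, and Sfxn3, a sideroflexin, at 8.13, 8.70 and 8.11. Vdac1, the channel of the outer membrane through which ADP and ATP pass, stood at 14.22, 14.17 and 14.63. Between the strains 5 of this list were higher in SAMP8 by more than 1.5-fold, namely Mcu, Sfxn1, Mpc2, Sfxn5 and Abcb8, and 0 were lower (all probe sets, 5.0% and 6.08%). The list's median was 0.245.

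**Figure D3:**
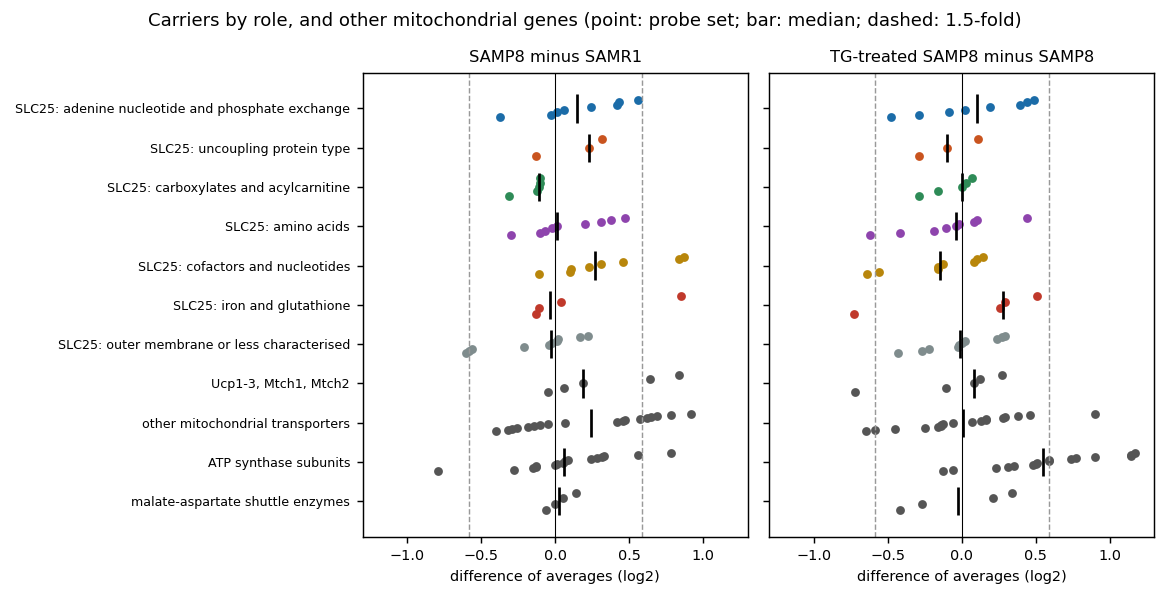
Differences between group averages (horizontal axis, log2) by role for the SLC25 carriers in color and for 4 other lists of mitochondrial genes in grey, with SAMP8 minus SAMR1 on the left and TG-treated SAMP8 minus SAMP8 on the right. Each point is a probe set, black bars are medians and dashed lines mark 1.5-fold, and the ATP synthase subunits have a median of 0.55 with TG where no SLC25 role group exceeds 0.275.

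Among the carriers of amino acids, the largest difference was that of Slc25a22, which brings glutamate into the matrix together with a proton. It averaged 11.01 in SAMR1, 11.32 in SAMP8 and 10.70 with TG. The TG group was the low one, 0.62 below SAMP8 (1.54-fold, percentile 3.0 of all probe sets) and 0.31 below SAMR1. After subtracting the median difference of probe sets of like signal, its difference with TG was -0.54, inside the limit. The gene lies on chromosome 7 from 141429749 to 141437874. Slc25a18, the second glutamate carrier, known from astrocytes, stood at 7.28, 7.48 and 7.44, and its difference with TG was -0.04. The glutamate carriers thus had unequal differences with TG, with no test of the gap between them.

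The components of the malate-aspartate shuttle stayed within 1.5-fold in all 3 comparisons. Slc25a12, the aspartate-glutamate carrier of neurons, stood at 13.64, 13.54 and 13.62, a range of 0.10 over the 3 groups. Slc25a11, which exchanges oxoglutarate for malate, stood at 12.23, 12.13 and 11.97, with the TG group 0.26 below SAMR1. Slc25a13, the aspartate-glutamate carrier of liver, was 0.47 higher in SAMP8 than in SAMR1, at 4.17, 4.64 and 4.53, close to the lowest 25% of signal, and its strain difference stood at the percentile 91.3 of all probe sets. The shuttle's enzymes Got1, Got2, Mdh1 and Mdh2 differed by -0.42 to 0.34 with TG and by -0.06 to 0.14 between the strains.

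Of the other amino acid carriers, Slc25a44, which takes up branched-chain amino acids, was lower in SAMP8 and higher with TG, at 10.03, 9.73 and 10.17. Its differences were -0.30 and 0.44. Slc25a15, the ornithine carrier that links mitochondria to the urea cycle and polyamines, had the opposite order, with averages of 6.95, 7.33 and 6.91. Slc25a38, a glycine carrier for heme synthesis, stood at 8.57, 8.58 and 8.56. Slc25a2 and Slc25a29, carriers of ornithine and of basic amino acids, had differences between -0.21 and 0.10. Over the 9 amino acid carriers the median difference was 0.01 between the strains and -0.04 with TG.

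Glutathione reaches the matrix through Slc25a39 and Slc25a40, and both were higher in the TG group than in the other groups. Slc25a39 had averages of 7.47 in SAMR1, 7.34 in SAMP8 and 7.85 with TG, and its difference of 0.51 (1.42-fold) was the highest of all 47 carriers with TG. It stood at the percentile 93.2 of all probe sets. Slc25a40 stood at 8.27, 8.31 and 8.60, a difference of 0.29 with TG. Neither passed 1.5-fold in any comparison. Slc25a39 lies on chromosome 11 from 102402969 to 102408675 and Slc25a40 on chromosome 5 from 8422730 to 8454839.

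The carriers of carboxylates and acylcarnitines were the group with the smallest spread between the strains. All 5 were lower in SAMP8 than in SAMR1, by 0.10 to 0.31, where 49.0% of all probe sets were lower by any amount. Slc25a1, which exports citrate for lipid synthesis, stood at 10.36 in SAMR1, 10.24 in SAMP8 and 9.95 with TG, where it was 0.41 below SAMR1. Slc25a20, the carnitine-acylcarnitine carrier of fatty acid oxidation, had averages of 5.75, 5.65 and 5.65. Slc25a10, the dicarboxylate carrier, stood at 6.60, 6.49 and 6.56, and Slc25a21, the oxoadipate carrier, at 4.24, 3.93 and 3.96, in the lowest 25% of signal. None of the 5 passed 1.5-fold in any of the 3 comparisons.

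The brain uncoupling proteins belong to the same family. Slc25a27, also called UCP4, stood at 10.96 in SAMR1, 11.28 in SAMP8 and 11.18 with TG. For Slc25a14, also called UCP5, the averages were 9.43, 9.66 and 9.37, with the TG group 0.29 below SAMP8 and level with SAMR1 within 0.06. Slc25a30 stood at 6.80, 6.67 and 6.78. The uncoupling proteins with symbols of their own were looked up beside them. Ucp2 had averages of 8.60, 9.44 and 8.72, which is 0.84 higher in SAMP8 than in SAMR1 and 0.72 lower with TG than in SAMP8. Both of these differences use the same untreated SAMP8 average, and the TG group stood 0.12 above SAMR1. Ucp1 and Ucp3, known from brown fat and muscle, had averages between 3.59 and 3.92 in all groups. Mtch2, a relative in the outer membrane, stood at 9.93, 10.57 and 10.69, and so was 0.64 higher in SAMP8 and 0.76 higher in the TG group than in SAMR1.

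The last group holds Slc25a46 and 9 carriers whose substrates are less well known. Slc25a46, a protein of the outer membrane with a part in mitochondrial fission and shape, stood at 14.33, 14.55 and 14.12, with the TG group 0.43 below SAMP8 (1.35-fold, percentile 8.4). Slc25a54 was the carrier lower in SAMP8 than in SAMR1 by more than 1.5-fold. Its averages were 5.47, 4.87 and 5.11, a difference of -0.60 (1.52-fold) between the strains and of 0.24 with TG. After subtracting the median difference of probe sets of like signal, the strain difference was -0.51, inside the limit. Slc25a43 and Slc25a34 lay just inside the limit. Slc25a43 stood at 5.20, 4.62 and 4.91, a strain difference of -0.58, and Slc25a34 at 4.56, 4.00 and 4.02, a strain difference of -0.56, with the last in the lowest 25% of signal. Slc25a16 differed least, with averages of 10.50, 10.51 and 10.49. Slc25a35, Slc25a45, Slc25a47, Slc25a48 and Slc25a53 had differences between -0.27 and 0.29 in all 3 comparisons. In this group 9 of the 10 genes were lower in TG-treated SAMP8 than in SAMR1, with a median of -0.21, where 50.4% of all probe sets were lower.

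**Figure D4:**
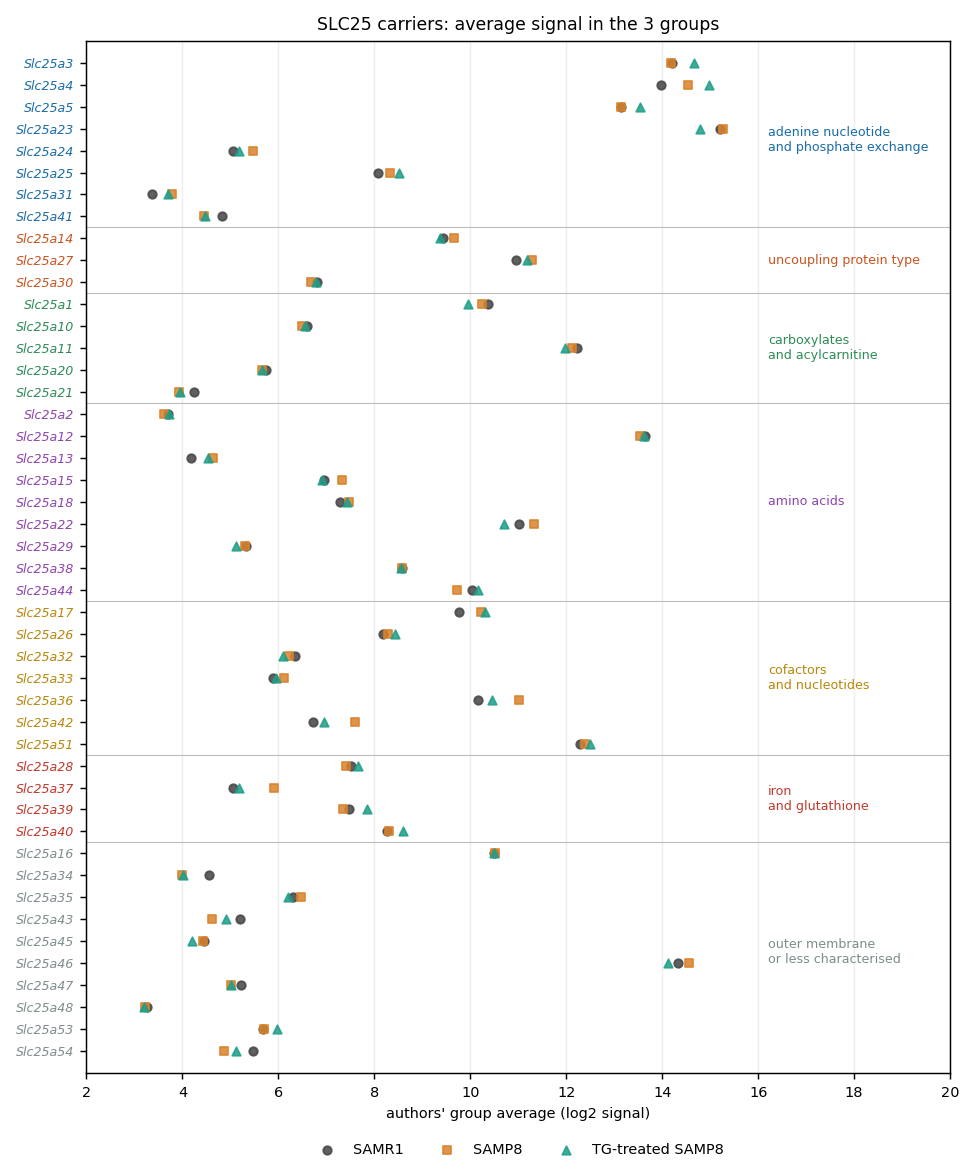
Group averages of 46 SLC25 carriers (horizontal axis, log2 signal), 1 row per gene and grouped by role, with SAMR1 as grey circles, SAMP8 as orange squares and TG-treated SAMP8 as green triangles. Averages run from 3.20 to 15.27, most rows have their 3 symbols close together, and the rows of Slc25a36, Slc25a42 and Slc25a37 have the SAMP8 square to the right of the other symbols.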

How the data were processed

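Clariom S Mouse arrays were hybridized with hippocampal RNA of 9 mice. The authors summarized the arrays by SST-RMA in the Transcriptome Analysis Console, and the deposited tables, 1 for each of 2 comparisons, hold the authors' group averages as log2 signal, with annotation on mm10 per the file headers. They also hold the authors' fold changes, p-values and adjusted p-values, which were not used. The SAMP8 averages were identical in both tables (largest difference 0.00), so TG-treated SAMP8 was also set against SAMR1. Each average pools 3 arrays, whose number limits its precision.

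Carriers were found by symbol. Differences of averages were counted past 1.5-fold and placed as percentiles among all probe sets. Positions are those of RefSeq on GRCm38.p6, where all 47 carriers matched. Counts and medians cover all 47, of which 1 is not reported here by name or drawn in the plots of single carriers. Counting was tested on simulated data. The alternatives were limits of 1.2, 1.3 and 2, leaving out the lowest 25% of signal, subtracting the median of all probe sets or of 20 signal classes, 1 value per gene and single-symbol probe sets. The carriers and lists were chosen with earlier results of these data known. Any carrier could be named, with all 3 averages for those past 1.5-fold, the 3 highest and lowest of each comparison and 16 set by role, and other genes past 1.5-fold on the lists. Atp5b, Vdac1, Mpc2, Alas2, Atp5d, Neurod6, C1ql2, Slc1a2 and the carriers beyond this rule were added with their values known. Python 3.11.15, numpy 2.4.6, pandas 2.3.3 and matplotlib 3.10.9 were used.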

Additional observations from a re-analysis of the deposited data

How the results depend on the processing

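No difference could be set against the spread between arrays, and leaving out arrays was not possible, since only group averages were used. No paired analysis was possible because the averages carry no replicate numbers. The counts past the limit moved with the limit itself. At 1.2-fold the numbers higher and lower were 12 and 6 for SAMP8 minus SAMR1, 8 and 11 for TG-treated SAMP8 minus SAMP8, and 11 and 8 for TG-treated SAMP8 minus SAMR1, where the shares of all probe sets were 20.4% and 20.4%, 19.6% and 18.5%, and 20% and 20.5%. At 1.3-fold they were 9 and 3, 5 and 7, and 6 and 3, where the shares were 13.0% and 13.6%, 12.1% and 11.2%, and 13.2% and 13.1%. At 2-fold they were 0 and 0, 0 and 0, and 1 and 0, the 1 being Slc25a4, which lies on that limit within rounding. After subtracting the median difference of probe sets of like signal, 0 carriers were lower in SAMP8 by more than 1.5-fold, since Slc25a54 moved to -0.51, and 2 in place of 3 were lower with TG, since Slc25a22 moved to -0.54. The medians moved by less than 0.1 under every alternative run, and leaving out the lowest 25% of signal changed no count past 1.5-fold. All carriers have 1 probe set with 1 symbol, so counting by gene or by single-symbol probe sets gave the same values.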

Other observations

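Some carriers lie next to each other in the genome, with neighbors apart in some comparisons and alike in others. Slc25a54 and Slc25a24 lie 6.6 kb apart on chromosome 3. The difference SAMP8 minus SAMR1 was -0.60 for Slc25a54 and 0.43 for Slc25a24. Slc25a41 and Slc25a23 lie 2.1 kb apart on chromosome 17, with differences of 0.02 and -0.48 with TG and of -0.35 and -0.42 for TG-treated SAMP8 minus SAMR1. On chromosome X, Slc25a43 and Slc25a5 lie 18.3 kb apart, with strain differences of -0.58 and 0.01 and differences with TG of 0.29 and 0.39. Slc25a29 and Slc25a47 lie 14.0 kb apart on chromosome 12, and their differences with TG were -0.19 and 0.00, while both stood at -0.21 for TG-treated SAMP8 minus SAMR1.

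Across the array the differences with TG and between the strains moved with the genomic length of the gene, in opposite directions. With TG, the median over all probe sets with a RefSeq position was 0.09 in the shortest 25% of genes, up to 5.8 kb. It was -0.09 in the longest 25%, from 44.6 kb. For SAMP8 minus SAMR1 the medians of these classes were -0.07 and 0.07, and for TG-treated SAMP8 minus SAMR1 -0.01 and -0.03. The untreated SAMP8 average enters both the difference with TG and that between the strains. The 8 carriers in the shortest class had a median of 0.06 with TG and the 6 in the longest a median of 0.055. Slc25a4 and Slc25a5 span 3.9 and 3.2 kb and Slc25a39 spans 5.7 kb, all in the shortest class, and Slc25a3 spans 7.5 kb. Slc25a37, Slc25a36 and Slc25a42 span 43.7, 35.8 and 27.9 kb, between 17.2 and 44.6 kb, a class in which the 20 carriers had medians of 0.225 between the strains and -0.065 with TG, and all probe sets of the class 0.03 and -0.02. The part of gene length in the differences was not tested.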
